A study of Mus musculus with 9 samples.

Results

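Immunoglobulin constant-region genes encode the part of an antibody chain that sets its class. The 10 genes described here are 7 of them (Igkc, Ighm, Igha, Ighg1, Ighg2b, Ighg2c and Ighg3) and 3 genes of B cells and plasma cells (Jchain, Mzb1 and Cd79a), out of 55385 genes in the table. They were chosen by name, after the immunoglobulin V genes of the same libraries had been seen to differ between the groups. In the table they are ENSMUSG00000076609 (Igkc), ENSMUSG00000076617 (Ighm), ENSMUSG00000095079 (Igha), ENSMUSG00000076614 (Ighg1), ENSMUSG00000076613 (Ighg2b), ENSMUSG00000076612 (Ighg2c), ENSMUSG00000076615 (Ighg3), ENSMUSG00000067149 (Jchain), ENSMUSG00000024353 (Mzb1) and ENSMUSG00000003379 (Cd79a). Because of that choice, their levels and calls are given as a description with no test, and nothing is read from how many of them differ.

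An antibody is built from heavy and light chains, and in each chain a variable region, encoded by a V gene joined to short D or J segments, is followed by a constant region on the same mRNA. A B cell uses the constant region of IgM before it switches class, after which the same variable region is followed by the constant region of an IgG or IgA. Plasma cells, the secreting form of the B cell, hold very large amounts of these mRNAs, are rare in healthy kidney and can gather in the inflamed kidney interstitium.

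The study asked how pectolinarigenin, a flavonoid, acts on the kidney in hyperuricemic nephropathy. All animals were young adult C57BL/6 mice, and poly(A) RNA of the kidney was sequenced. The labels number the samples within each group without stating that each came from its own mouse, and p-values then measure the spread between these samples. Control mice (numbers 2, 4 and 5) were untreated. Mice of the HN group (numbers 4, 8 and 12) were made hyperuricemic with adenine and potassium oxonate and were given no drug. Mice of the PEC group (numbers 1, 2 and 3) had received the same agents together with pectolinarigenin, for which the labels give no dose. The Control samples are called HN mice in their titles but control in their disease state, and the latter was used. Each group had 3 libraries. Total counts ran from 57714111 in PEC 3 to 81069646 in HN 8.

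FPKM, a read count scaled by the length of the gene and the total of the library, is the scale on which genes are compared here. Differences between groups were fitted to the counts with edgeR's quasi-likelihood test, and a gene was called where the fold change was at least 1.5 and the Benjamini-Hochberg adjusted p over 21341 tested genes was at most 0.05. Limma and the filter on average FPKM, used as alternatives, tested only the 15508 genes with an average of at least 0.5 FPKM, which leaves out Ighg1, Ighg3 and Cd79a of the 10. As a check of the tissue, Umod, a protein of the thick ascending limb, stood at 845 to 938 FPKM in Control, 1253 to 1385 in HN and 1086 to 1214 in PEC libraries. These FPKM ranges stand apart, whereas the fitted log2 fold change of Umod, scaled by TMM, was 0.07 ± 0.10 in HN against Control, 0.01 ± 0.10 in PEC against HN and 0.08 ± 0.10 in PEC against Control, with overlapping libraries. With library totals (0.63) or limma (0.60) Umod was called higher in HN against Control, and in PEC against HN its sign turned with both (-0.19 and -0.21), with no filter (-0.02) and without HN 8 (-0.04) or PEC 2 (-0.03). The PEC libraries stood apart from both other groups. Scgb1a1, a secreted protein of lung airway cells, was at 51.6, 45.6 and 17.4 FPKM in PEC 1, 2 and 3, at 0.10 in HN 12 and at 0 in the other 5 libraries. Since no label names a batch, an effect of PEC and an effect of a library batch cannot be told apart in any result that follows. The 3 comparisons share libraries in pairs, so that the HN values, for example, enter both HN against Control and PEC against HN, with opposite sign. In whole kidney, fewer cells of a type and less RNA per cell cannot be told apart either.

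Igkc encodes the constant region of the kappa light chain, which most mouse antibodies carry. It lies on chromosome 6 of GRCm38 from 70726435 to 70726966 as a single exon. Its FPKM was 11.98, 33.2 and 41.0 in Control 2, 4 and 5, then 226, 316 and 265 in HN 4, 8 and 12, and 39.5, 69.0 and 31.0 in PEC 1, 2 and 3. All HN libraries lay above all others, while Control and PEC overlapped, with Control 2 lowest of all. The fitted log2 fold change was 2.68 ± 0.45 (SE) in HN against Control and -2.31 ± 0.45 in PEC against HN. Against Control, the PEC group differed by 0.37 ± 0.43, less than its error, and by -0.03 without PEC 2.

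Ighm encodes the constant region of IgM, the class that a B cell makes before it switches. It lies on the minus strand of chromosome 12, from 113418558 to 113422730. Its FPKM was 1.15, 1.12 and 1.70 in the Control libraries, 7.01, 14.3 and 12.6 in the HN libraries, and 11.3, 11.7 and 11.7 in the PEC libraries. Both HN and PEC lay above Control without overlap, and the PEC values fell inside the HN range. The fit gave a log2 fold change of 2.54 ± 0.27 in HN against Control and 2.79 ± 0.27 in PEC against Control. Between PEC and HN it was 0.26 ± 0.25, and no alternative tried called it. These levels rest on 1088, 2436 and 1973 reads in HN libraries and on 1793, 1599 and 1450 in PEC libraries.

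Igha encodes the constant region of IgA, the class that is secreted onto mucosal surfaces. It lies at the end of the heavy-chain cluster, on chromosome 12 from 113254830 to 113260236. Its FPKM was 3.60, 9.75 and 12.8 in Control libraries, 75.8, 93.8 and 87.1 in HN libraries and 6.38, 10.8 and 3.95 in PEC libraries. HN stood above both other groups, and PEC lay within the Control range. The log2 fold change was 2.75 ± 0.48 in HN against Control, -3.38 ± 0.50 in PEC against HN and -0.63 ± 0.46 in PEC against Control. In the fit, Igha was 10.4 times lower in PEC than in HN mice.

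The 4 IgG genes, Ighg1, Ighg2b, Ighg2c and Ighg3, encode the constant regions of the IgG subclasses of this strain and lie side by side on chromosome 12. Their coding sequences resemble each other, so that reads could be split between them by the counting, and the start of each segment is shown to let the degree of likeness be seen. The stretches are the 90 bases that begin the annotated constant region in GENCODE M21, on the minus strand, at chr12:113288843-113288932 for Ighg2c, chr12:113307844-113307933 for Ighg2b, chr12:113330434-113330523 for Ighg1 and chr12:113361143-113361232 for Ighg3. Capitals mark the bases that differ from Ighg2c at the same position.
Ighg2c: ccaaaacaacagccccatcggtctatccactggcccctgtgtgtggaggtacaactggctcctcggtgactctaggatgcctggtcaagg
Ighg2b: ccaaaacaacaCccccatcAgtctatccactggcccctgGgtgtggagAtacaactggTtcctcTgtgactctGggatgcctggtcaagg
Ighg1: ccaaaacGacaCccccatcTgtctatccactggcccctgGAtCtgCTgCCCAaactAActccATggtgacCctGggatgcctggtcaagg
Ighg3: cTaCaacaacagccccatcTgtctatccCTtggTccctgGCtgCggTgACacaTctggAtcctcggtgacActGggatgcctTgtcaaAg
Ighg2b differs from Ighg2c at 7 of the 90 positions, and Ighg1 and Ighg3 differ from it at 18 each. Over whole transcripts, 5.49% of the 50-base words of Ighg2c, 4.15% of those of Ighg2b, 1.58% of Ighg3 and 0.39% of Ighg1 also occur in a transcript of another gene. No 100-base word of these genes did, and no 50-base word of Igkc, Ighm or Igha was shared. The read length and the handling of reads with several matches are not given in the sources used here, so that the split between Ighg2b and Ighg2c is the least certain.

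Ighg2c was the most abundant IgG gene in the HN libraries. Its FPKM was 0.58, 2.26 and 0.95 in Control libraries, 14.3, 22.3 and 11.8 in HN libraries and 1.00, 2.09 and 0.13 in PEC libraries. HN lay above both other groups, which overlapped, and PEC 3 was the lowest library. The fit gave a log2 fold change of 3.14 ± 0.80 in HN against Control and -3.67 ± 0.82 in PEC against HN. Against Control it was -0.53 ± 0.77, and without Control 4 it turned to 0.15. Over left-out libraries the value ran from 2.80 to 3.83 in HN against Control and from -4.57 to -3.14 in PEC against HN.

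Ighg2b, its close neighbour, behaved less evenly. Its FPKM was 0.18, 0.59 and 0.27 in Control libraries, 2.86, 3.40 and 2.21 in HN libraries and 0.35, 4.08 and 0.37 in PEC libraries. PEC 2 was the highest of all 9 libraries, while PEC 1 and PEC 3 lay within the Control range. The log2 fold change was 2.50 ± 0.93 in HN against Control, -0.60 ± 0.87 in PEC against HN and 1.90 ± 0.91 in PEC against Control, and none of these was called. Without PEC 2 the value was -2.74 against HN, which was called, and -0.24 against Control. In HN against Control, Ighg2b was called in 9 of 19 alternatives, among them DESeq2, limma and the fits without PEC 1 (2.50), PEC 2 (2.51) or PEC 3 (2.50).

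Ighg1 and Ighg3 were scarce in every library. The FPKM of Ighg1 was 0.06, 0.06 and 0.13 in Control libraries, 1.07, 0.67 and 0.19 in HN libraries and 0.38, 1.03 and 0.89 in PEC libraries. HN 12 lay close to Control, and PEC lay above Control without overlap. The log2 fold change of Ighg1 was 2.48 ± 0.69 in HN against Control, 0.46 ± 0.63 in PEC against HN and 2.94 ± 0.70 in PEC against Control. The call in HN against Control was lost without Control 2 (2.27), Control 4 (2.27) or HN 4 (1.87). Ighg3 rested on few reads, with 0, 4 and 4 in Control libraries, 44, 70 and 26 in HN libraries and 4, 0 and 4 in PEC libraries. Its 3 HN libraries lay above all others, and Control and PEC had the same total of 8 reads. The log2 fold change of Ighg3 was 3.50 ± 1.08 in HN against Control and -3.64 ± 1.08 in PEC against HN. The former lost its call without Control 2 (2.93), Control 4 (3.89), HN 4 (3.49) or HN 8 (3.16), and the latter without HN 4 (-3.63), HN 8 (-3.30) or PEC 1 (-3.90). Between PEC and Control, Ighg3 was at -0.14 ± 1.16, and its sign turned with library totals (0.21) and without Control 4 (0.25), Control 5 (0.27) or PEC 2 (0.42).

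Jchain encodes the joining chain, which links IgA and IgM into polymers for secretion. It lies on chromosome 5 from 88519809 to 88527891. Its FPKM was 1.55, 3.33 and 4.56 in Control libraries, 12.4, 26.5 and 26.8 in HN libraries and 1.49, 2.39 and 0.82 in PEC libraries. HN lay above both other groups, with HN 4 the lowest of the 3, and PEC 1 and PEC 3 lay below every Control library. The fit gave a log2 fold change of 2.24 ± 0.49 in HN against Control and -3.57 ± 0.52 in PEC against HN, and every alternative called both. Between PEC and Control it was -1.33 ± 0.49 and not called, but DESeq2 (-1.31), an unadjusted p and the fits without Control 2 (-1.66), HN 4 (-1.33) or PEC 2 (-1.76) called it. Set against Igha, Jchain stood at 0.431, 0.342 and 0.357 times its FPKM in Control libraries, 0.164, 0.282 and 0.308 in HN libraries and 0.234, 0.221 and 0.208 in PEC libraries. PEC and HN overlapped in this ratio, and both lay below Control.

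Mzb1 encodes a protein of the endoplasmic reticulum that helps B cells and plasma cells to fold and secrete IgM. On chromosome 18 its exons overlap those of Spata24 on the same strand, so that reads of the pair may be mixed. Its FPKM was 0.43, 0.08 and 0.60 in Control libraries, 0.94, 1.81 and 1.22 in HN libraries and 0.81, 1.07 and 0.80 in PEC libraries. HN and PEC overlapped, and both lay above Control. The log2 fold change was 1.26 ± 0.58 in HN against Control, -0.34 ± 0.56 in PEC against HN and 0.91 ± 0.58 in PEC against Control, none of which was called. With library totals in place of TMM (1.84) and with limma (0.76 on log2(FPKM + 1)), Mzb1 was called higher in HN. Limma on log2(FPKM + 0.1) called it higher in HN (1.77) and in PEC against Control (1.28).

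Cd79a encodes a signalling chain of the B cell receptor and lies on chromosome 7 from 24897381 to 24902197. Its FPKM was 0.06, 0.10 and 0.20 in Control libraries, 0.59, 0.65 and 0.69 in HN libraries and 0.43, 0.21 and 0.17 in PEC libraries. HN lay above both other groups, and PEC overlapped Control. The fit gave a log2 fold change of 1.81 ± 0.54 in HN against Control, -0.99 ± 0.52 in PEC against HN and 0.82 ± 0.54 in PEC against Control. The call in HN against Control was lost without Control 2 (1.5), Control 4 (1.66), HN 8 (1.81) or HN 12 (1.77).

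**Figure D1:**
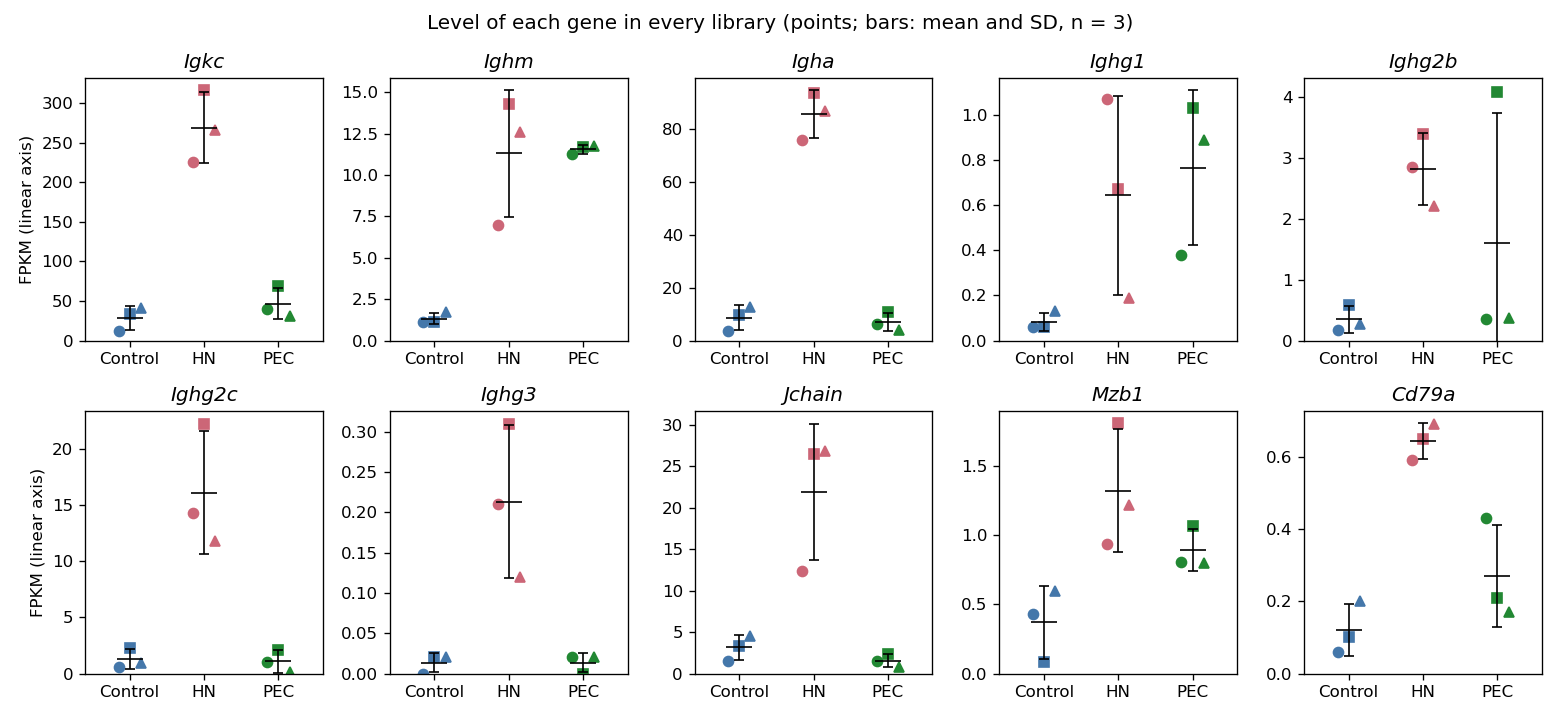
FPKM (linear axis) of the 10 genes in each of the 9 libraries, with 1 panel per gene, points for libraries and bars for the group mean and SD (n = 3). Igkc, Igha, Ighg2c, Ighg3 and Jchain stand highest in all 3 HN libraries and low in PEC libraries, Ighm stays between 11.3 and 11.7 in PEC, and PEC 2 stands alone for Ighg2b.

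All 10 genes passed the filter on low counts. In HN against Control, 8 of the 10 were called higher and none lower, where 17.7% of all tested genes were called higher and 14.8% lower. No gene of the 10 was called lower by DESeq2 or at an unadjusted p, nor by limma among the 7 it tested. Their median log2 fold change was 2.52, where that of all tested genes was -0.003. Without Control 2 or Control 4, 5 of the 10 were called. In PEC against HN, 5 were called lower (Igkc, Igha, Ighg2c, Ighg3 and Jchain) and 0 higher, where 15.3% and 13.5% of all tested genes were. None was called higher by DESeq2 or at an unadjusted p, nor by limma among 7. The median was -1.65, against -0.015 for all tested genes. In PEC against Control, Ighm and Ighg1 were called higher and none lower, where 19.0% and 17.5% of all tested genes were. At an unadjusted p and in DESeq2 1 gene, Jchain, was called lower, and limma called 0 of 7 lower. Their median was 0.60, against 0.041. The split of all calls depended on the scaling. With TMM, HN against Control gave 3775 higher and 3157 lower genes, and with library totals it gave 7705 and 1285. In PEC against HN these were 2879 and 3266, and 1946 and 4634 with library totals, and in PEC against Control 4046 and 3727, and 6398 and 1961. Limma on log2(FPKM + 1) gave 4649 and 1024, 1356 and 3390, and 3581 and 1485. Library totals moved the median of all genes by 0.56, -0.20 and 0.36 in the 3 comparisons, and limma on log2(FPKM + 1) moved it by 0.40, -0.16 and 0.24 over the 15400 genes that it shares with the edgeR fit. FPKM follows library totals, so that ratios of FPKM means between groups carry the former shift and the fitted values do not. The log2 fold changes of the 10 genes in HN against Control were positive under every scaling that tested them.

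The V genes encode the variable regions that precede these constant regions in the mRNA. The table holds 348 of them, 185 of the heavy chain (IGHV), 160 of the kappa chain (IGKV) and 3 of the lambda chain (IGLV), and 120 passed the filter. Summed over all 348, their FPKM was 19.7, 56.3 and 83.9 in Control libraries, 514, 625 and 551 in HN libraries and 17.8, 29.0 and 14.0 in PEC libraries. The summed FPKM of the 7 constant regions was 17.6, 47.0 and 56.8 in Control libraries, 327, 451 and 379 in HN libraries and 58.9, 98.7 and 48.1 in PEC libraries. In HN both sums lay above all other libraries, at 10.6 times the Control mean for the V genes and 9.53 times for the constant regions. Between HN and PEC they parted. The V genes were 27.8 times lower in PEC than in HN mice by group means, and the constant regions 5.62 times lower. Against Control, the PEC mean was 0.380 times as high for the V genes and 1.69 times as high for the constant regions, with overlapping libraries in both.

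Most of the 120 tested V genes passed the filter on low counts through HN, since 111 reached its minimum in all 3 HN libraries, 16 in all 3 Control libraries and 1 in all 3 PEC libraries, and 31 would have passed without the HN libraries. Counts and medians over them are therefore shaped by the filter and are given as a description. Of the 120, 55 rose and 0 fell in HN against Control, with a median log2 fold change of 2.89 against -0.003 for all tested genes, of which 17.7% were called higher and 14.8% lower. Library totals gave 84 rises and limma, which tested 110 V genes, 102 or 100. DESeq2, limma and an unadjusted p also gave 0 falls. Without HN 4 the rises were 34, and without HN 8 they were 36. In PEC against HN, 92 of the 120 fell and 0 rose, where 15.3% and 13.5% of all tested genes did, and DESeq2, limma and an unadjusted p again gave 0 rises. The median was -5.72 as fitted and -5.10 with genes that have a group at 0 set to a floor of 3 counts over the group. In PEC against Control, 31 fell and 0 rose, with medians of -2.55 and -1.89, where 17.5% and 19.0% of all tested genes did, while an unadjusted p gave 2 rises, DESeq2 3 and limma 0. The falls were 8 or 19 with limma, 47 at an unadjusted p, 14 in a fit of only these groups, 14 without Control 5, 18 without HN 8, 20 without HN 12, 16 without PEC 1 and 19 without PEC 3, and rises were 2 without Control 5, 1 without PEC 2 and 1 without PEC 3. By chain, 47 of 58 heavy-chain V genes were called lower in PEC than in HN with a median of -5.63 at the floor, and 44 of 60 kappa V genes with a median of -4.48. The value was negative for all 58 heavy-chain and all 60 kappa genes. Of the 2 tested lambda V genes, Iglv1 was called lower.

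The 7 V genes described singly are the 3 heavy-chain, 3 kappa and 1 lambda genes with the highest mean FPKM, namely Ighv9-3, Ighv1-26, Ighv1-64, Igkv10-96, Igkv14-111, Igkv1-117 and Iglv1. That mean is set mostly by the HN libraries, so that their values and calls are a description with no test. All but Ighv9-3 (2.05 ± 0.93) and Igkv14-111 (3.20 ± 1.18) were called higher in HN, and all but Igkv14-111 were called lower in PEC against HN. In HN against Control the log2 fold change was 3.17 ± 0.88 for Ighv1-26, 3.02 ± 0.57 for Igkv1-117 and 2.13 ± 0.72 for Iglv1. Between PEC and HN the log2 fold change was -5.85 ± 1.17 for Ighv9-3, -7.02 ± 1.14 for Ighv1-26, -4.43 ± 0.62 for Igkv1-117 and -3.18 ± 0.75 for Iglv1. The value of Ighv1-26 rests on 0, 7 and 0 reads in PEC libraries and was -11.45 without PEC 2, where no PEC read is left and the fitted value is no bound. Ighv9-3, Ighv1-26 and Ighv1-64 were also called lower in PEC against Control. There the value was -3.80 ± 1.11 for Ighv9-3, with overlapping libraries, and -3.86 ± 1.12 for Ighv1-26, with 3 of 3 PEC libraries lower and a value of -8.29 without PEC 2. Limma on log2(FPKM + 1) called neither (-1.31 and -0.82), limma on log2(FPKM + 0.1) did not call Ighv9-3 (-2.43), and a fit of only these groups did not call Ighv1-26 (-3.81). In HN, Ighv1-26 lost its call without Control 2 (2.81), Control 4 (2.77) or HN 8 (2.93). Iglv1 lost it without Control 2 (1.72), Control 4 (1.91), HN 4 (2.05), HN 8 (2.19), HN 12 (2.14) or PEC 2 (2.13). Ighv9-3 was called higher with library totals (2.66), DESeq2 (2.08) and limma (2.41 and 3.13) and without Control 5 (3.48). Igkv14-111 was called higher at an unadjusted p, with library totals (3.73), DESeq2 (3.22), limma (3.28 and 4.49) and a fit of only these groups (3.25), and without Control 4 (4.64), PEC 2 (3.20) or PEC 3 (3.19). Against Control, Ighv9-3 and Ighv1-26 lost their calls without Control 5 (-2.38 and -2.55), PEC 1 (-4.03 and -3.23) or PEC 3 (-3.40 and -3.33), whereas Igkv10-96 (-1.44) and Igkv1-117 (-2.11) were called without PEC 3. Both were also called at an unadjusted p, Igkv10-96 with limma on log2(FPKM + 1) (-1.02) and Igkv1-117 with DESeq2 (-1.38).

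Ighv1-64 was the only one of the 7 with no read in any PEC library. It had 4, 55 and 44 reads in Control, 340, 376 and 375 in HN and 0 in all 3 PEC libraries. With reads pooled over each group and a floor of 3 counts over the PEC group, it was at least 272-fold lower in PEC than in HN. Against Control it was at least 38.0-fold lower. These bounds leave out the spread between libraries, which was wide in Control. It would not have passed the filter on low counts without the HN libraries. Its log2 fold change in HN against Control was 2.84 ± 0.75, with 3 of 3 HN libraries above Control, and was not called without HN 4 (2.84) or HN 12 (2.81). Igkv10-96, the V gene with the highest mean FPKM, stood at 1.34, 2.56 and 3.36 in Control libraries, 39.4, 26.3 and 31.6 in HN libraries and 0.94, 1.25 and 0 in PEC libraries. Its log2 fold change was 3.19 ± 0.76 in HN against Control and -5.21 ± 0.86 in PEC against HN. Igkv14-111 had 0.07, 3.62 and 1.01 FPKM in Control libraries, 27.5, 13.6 and 21.1 in HN libraries and 0.94, 4.98 and 0.16 in PEC libraries, and its difference between PEC and HN (-3.13 ± 1.18, lower in 3 of 3) was not called. It was called in 8 of 19 alternatives, namely at an unadjusted p, with library totals (-3.33), DESeq2 (-3.12), both limma fits (-3.14 and -4.17) and a fit of only the groups compared (-3.13), and without PEC 2 (-4.93) or Control 2 (-3.13). Against Control it was at 0.07 ± 1.14, and the sign turned without Control 2 (-0.48), Control 5 (-0.15) or PEC 2 (-1.74). V genes of a family resemble each other, and many of their 50-base words occur in another gene. The share was 49.9% for Igkv1-117, 49.0% for Ighv1-26, 33.4% for Ighv1-64 and 32.6% for Igkv10-96. It was 23.2% for Ighv9-3 and 22.2% for Iglv1, so that reads of all these may be split between genes. No 50-base word of Igkv14-111 was shared.

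The ratio of a constant region to its own V genes put both readings in the same library. The FPKM of Igkc divided by that of all kappa V genes was 1.02, 0.996 and 0.935 in Control libraries, 0.820, 0.917 and 0.896 in HN libraries and 3.21, 3.86 and 3.58 in PEC libraries. The group means were 0.984 ± 0.0449 for Control, 0.878 ± 0.0512 for HN and 3.55 ± 0.327 for PEC (SD, n = 3). All PEC libraries lay above all others, and HN lay below Control by a small margin. The 6 heavy-chain constant regions divided by all heavy-chain V genes gave 0.767, 0.643 and 0.444 in Control libraries, 0.459, 0.514 and 0.475 in HN libraries and 7.18, 3.05 and 3.40 in PEC libraries. HN and Control overlapped, and PEC again stood above, with PEC 1 furthest out. In reads, the kappa V genes had 375, 1029 and 1401 in Control and 408, 495 and 230 in PEC libraries, next to 527, 1454 and 1860 and 1778, 2667 and 1081 reads of Igkc. On TMM-scaled counts, which are not divided by length, the mean kappa ratio was 1.38 for Control, 1.26 for HN and 4.815 for PEC. The lambda constant regions Iglc1 to Iglc3 over the lambda V genes gave 1.28, 0.470 and 0.616 in Control libraries, 0.473, 0.594 and 0.659 in HN libraries and 1.72, 1.76 and 0.909 in PEC libraries, where PEC overlapped Control.

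**Figure D2:**
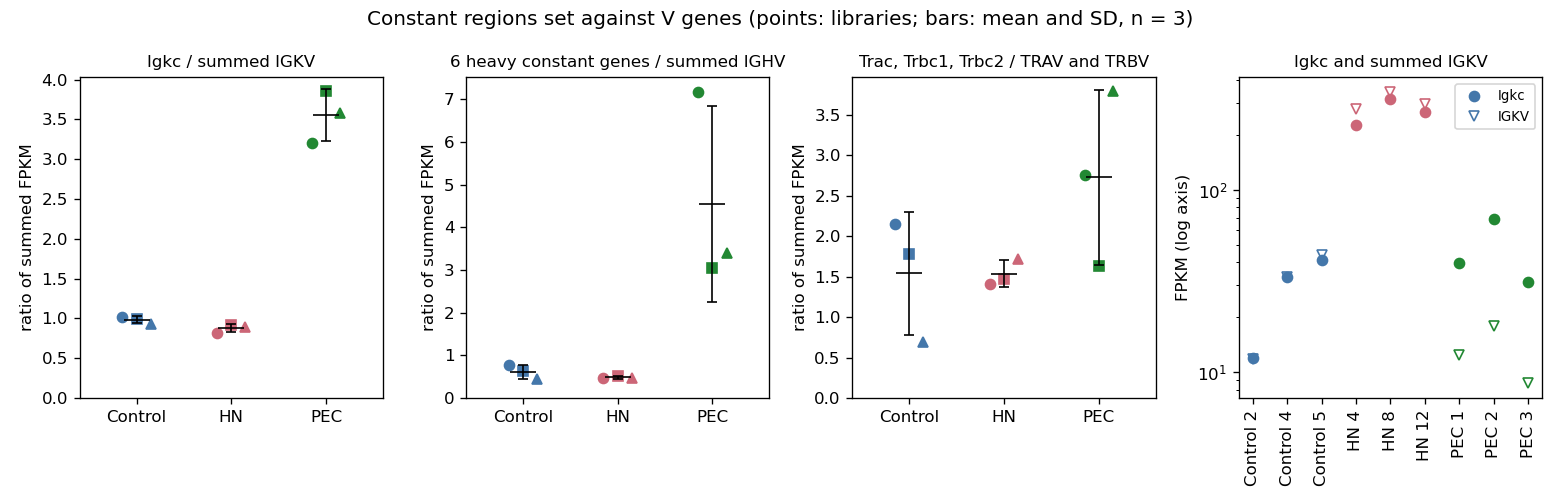
Ratio of summed FPKM of constant regions to their V genes for the kappa chain, the heavy chain and the T cell receptor (points for libraries, bars for group mean and SD, n = 3), and FPKM of Igkc and summed kappa V genes by library on a log axis. The kappa ratio lies at 0.820 to 1.02 in Control and HN and at 3.21 to 3.86 in PEC libraries, while the T cell receptor ratio overlaps between the groups.

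The T cell receptor is built from V and constant segments in the same way, and its genes were compared after the immunoglobulin ratios had been seen. The summed FPKM of 165 TRAV and TRBV genes was 1.21, 2.41 and 2.52 in Control libraries, 10.2, 17.6 and 11.4 in HN libraries and 4.22, 6.91 and 3.68 in PEC libraries. Trac, Trbc1 and Trbc2 divided by that sum gave 2.16, 1.78 and 0.687 in Control libraries, 1.41, 1.47 and 1.72 in HN libraries and 2.75, 1.64 and 3.80 in PEC libraries. The 3 groups overlapped, PEC 2 lay inside the HN range, and the difference between the receptor kinds was not tested. The summed TRAV and TRBV genes rest on 45 to 638 reads per library.

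The mix of heavy-chain classes in PEC libraries lay apart from that of the other groups. Ighm made up 20.7%, 8.12% and 10.7% of the summed heavy-chain FPKM in Control libraries, 6.92%, 10.6% and 11.1% in HN libraries and 58.1%, 39.3% and 68.6% in PEC libraries. Igha made up 64.6%, 70.7% and 80.6% in Control libraries, 74.9%, 69.6% and 76.4% in HN libraries and 32.9%, 36.4% and 23.1% in PEC libraries. Control and HN overlapped in both shares, and PEC lay above them for Ighm and below them for Igha. In PEC 2 the order of the 2 depended on the division by length, since TMM-scaled counts gave 32.75% for Ighm and 42.86% for Igha. The 4 IgG genes together took 8.65% to 21.2% in Control, 12.6% to 19.8% in HN and 8.25% to 24.3% in PEC libraries, with overlap throughout. Within them, Ighg2c took 5.16%, 7.04% and 0.761% in PEC libraries, below its 10.4% to 16.5% in HN but overlapping its 6.00% to 16.4% in Control. Ighg1 took 1.96%, 3.47% and 5.21% in PEC libraries, above its 0.167% to 1.06% in HN and 0.435% to 1.08% in Control.

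**Figure D3:**
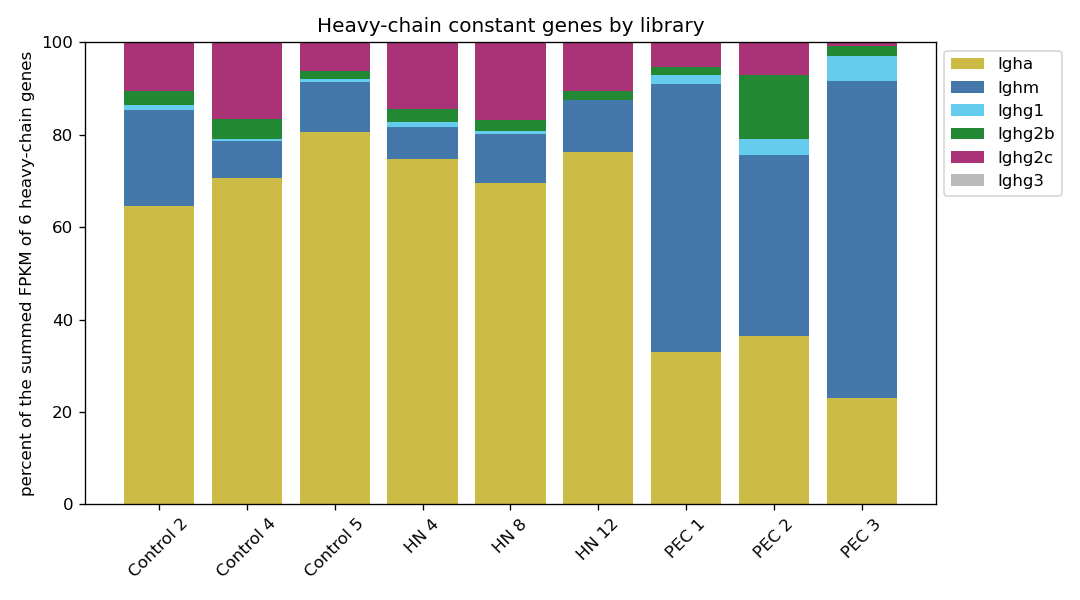
Percent of the summed FPKM of 6 heavy-chain constant genes taken by each gene in each library, as stacked bars that reach 100. By FPKM, Igha is the largest share in all Control and HN libraries and Ighm in all PEC libraries (39.3% to 68.6%), although PEC 2 holds more reads of Igha (2093) than of Ighm (1599).

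V genes with reads were also counted in each library. At least 1 read was counted for 64, 102 and 116 V genes in Control libraries, for 162, 168 and 153 in HN libraries and for 44, 54 and 36 in PEC libraries. The V reads behind these numbers were 625, 1752 and 2683 for Control, 15628, 20716 and 17018 for HN and 587, 804 and 365 for PEC. Control 2 and PEC 1 had similar read totals, with 64 and 44 V genes. The most counted V gene of each Control library took 6.4% (95% exact binomial interval 4.61 to 8.61), 6.28% (5.19 to 7.52) and 7.31% (6.35 to 8.36) of its V reads. In HN libraries it took 7.44% (7.04 to 7.86), 4.10% (3.84 to 4.38) and 5.54% (5.20 to 5.90), and was Igkv10-96 each time. In PEC libraries it took 13.8% (11.1 to 16.9), 16.7% (14.2 to 19.4) and 9.86% (7.00 to 13.4), and was Iglv1, Igkv14-111 and Igkv1-117 in turn. PEC lay above both other groups, although the interval of PEC 3 overlapped those of the Control libraries and HN 4. Intervals and floors cover counting error only.

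Of 4 tested other constant regions (Ighd and Iglc1 to Iglc3), 1 rose in HN, Iglc2, a lambda constant region (2.62 ± 0.51, adjusted p = 0.00272, edgeR, 3 of 3 libraries), and it fell by 2.67 ± 0.51 with PEC (adjusted p = 0.00315, edgeR, 3 of 3). Of all tested genes, 17.7% rose in HN and 15.3% fell with PEC against HN, so that 1 of 4 is not read as a result about the list. Limma tested 3 of the 4, and on log2(FPKM + 1) it gave 2 falls with PEC. The list had medians of 1.93, -1.10 and 0.83 in the 3 comparisons, with 2 rises in HN with library totals, limma and a fit of only these groups and without Control 5 or PEC 3, and summed to 0.80 to 2.80 FPKM in Control, 8.65 to 11.1 in HN and 0.54 to 5.13 in PEC libraries. None fell in HN, none rose with PEC and none was called in PEC against Control by edgeR or limma, where library totals, an unadjusted p and DESeq2 gave 1 rise. Ighe, the last of the 5, had 0.16 FPKM in PEC 2 and 0 elsewhere.

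Of 15 B cell genes, 8 rose and 0 fell in HN, 0 rose or fell with PEC against HN, and 7 rose and 0 fell in PEC against Control. Each of these counts of 0 was also 0 in DESeq2 and at an unadjusted p. The shares of all tested genes that rose and fell were 17.7% and 14.8% in HN. They were 13.5% and 15.3% in PEC against HN and 19.0% and 17.5% in PEC against Control. Limma and the filter on average FPKM tested only 4 of the 15 (Cd79b, Spib, Cd72 and Blnk) and called all 4 higher in HN and in PEC against Control and 0 in PEC against HN. The medians were 1.98, -0.38 and 2.15. Cd79b, the partner of Cd79a in the receptor, rose by 2.53 ± 0.26 in HN (adjusted p = 7.14e-05, edgeR, 3 of 3) and stood at -0.38 ± 0.24 in PEC against HN (adjusted p = 0.252, edgeR). Spib, a transcription factor of B cells and plasmacytoid dendritic cells, rose by 4.97 ± 0.31 (adjusted p = 5.47e-06, edgeR, 3 of 3). Cd22, a lectin receptor of B cells, rose by 4.21 ± 0.78 (adjusted p = 0.00214, edgeR, 3 of 3). The list summed to 3.24 to 3.61 FPKM in Control, 17.7 to 25.9 in HN and 16.6 to 23.9 in PEC libraries, so that PEC overlapped HN. Cd72 and Blnk, which other cells of the immune system also express, made up most of that sum, with 7.75 to 13.4 and 5.31 to 7.27 FPKM in PEC libraries. The overlap of the sum is mainly theirs. By FPKM, Cd79b stood at 1.63 to 2.47 in HN and 1.15 to 1.47 in PEC libraries, but overlapped on TMM-scaled counts. Spib (1.06 to 1.30 and 0.64 to 0.89) and Cd22 (0.33 to 0.62 and 0.19 to 0.30) also lay lower in PEC. Blk lay higher in PEC, at 0.10 to 0.14 in HN and 0.16 to 0.29 in PEC. In the fit of PEC against HN, 11 of the 15 values were negative and 4 positive. The defining genes Ms4a1 and Pax5 were at or near 0, at most 0.09 FPKM in any library. Ighm divided by Cd79b was 4.11, 5.60 and 7.39 in Control libraries, 4.30, 5.80 and 6.57 in HN libraries and 8.40, 10.2 and 7.98 in PEC libraries.

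Of 12 plasma cell genes, 6 rose and 2 fell in HN, 1 rose and 3 fell in PEC against HN, and 4 rose and 2 fell in PEC against Control, with medians of 1.32, -0.58 and 0.38. Of all tested genes, 17.7% rose and 14.8% fell in HN, 13.5% and 15.3% did in PEC against HN, and 19.0% and 17.5% in PEC against Control, so that 2 of 12 falls and 1 of 12 rises lie near the share of all genes. The 2 falls in HN, Eaf2 and Derl3, were not called with library totals (-0.55 and -0.88) or limma on log2(FPKM + 1) (-0.27 and -0.43). With library totals 5 fell with PEC against HN, with limma on log2(FPKM + 1) none rose with it, and 1 fell in PEC against Control with library totals or limma. Irf4, a transcription factor of activated B cells, plasma cells and T cells, rose by 2.92 ± 0.25 in HN (adjusted p = 2.38e-05, edgeR, 3 of 3) and stood at 0.41 ± 0.23 in PEC against HN. Sdc1, the proteoglycan CD138 of plasma cells and epithelia, rose by 1.86 ± 0.22 (adjusted p = 0.000167, edgeR, 3 of 3) and stood at -0.49 ± 0.22 in PEC against HN, which library totals (-0.69) and limma (-0.67) called. Pou2af1, a coactivator of immunoglobulin promoters in B cells, rose by 1.95 ± 0.58 in HN (adjusted p = 0.0241, edgeR, 3 of 3) and fell by 2.08 ± 0.58 with PEC (adjusted p = 0.0201, edgeR, 3 of 3). The rise was 2.98 without Control 4 and lost its call without Control 2 (1.65), Control 5 (1.59), HN 4 (1.77) or HN 12 (1.96), and the fall without HN 4 (-1.90), PEC 1 (-2.01) or PEC 3 (-2.00). Prdm1, a repressor that plasma cells need, and Xbp1, a driver of the secretory programme, also fell with PEC against HN, by 1.18 ± 0.37 and 0.67 ± 0.15 (adjusted p = 0.0328 and 0.00740, edgeR, 3 of 3 each). The 1 rise with PEC against HN was that of Eaf2, a partner of transcription elongation factors, at 1.20 ± 0.22 (adjusted p = 0.00242, edgeR, 3 of 3), not called with limma on log2(FPKM + 1) (0.49). The call of Prdm1 was lost with limma on log2(FPKM + 1) (-0.52) and without any of HN 4 (-1.22), HN 8 (-1.10), HN 12 (-1.21), PEC 1 (-1.14), PEC 2 (-1.19) and PEC 3 (-1.17), and that of Xbp1 without HN 4 (-0.54). Without HN 12 the rises in HN were 3, without HN 4 no gene fell with PEC, without PEC 1 the falls were 1, and without Control 4 the rises with PEC were 2. Xbp1 and Sdc1 are also expressed in kidney epithelium. The plasma cell list summed to 41.3 to 65.5 FPKM in Control, 81.9 to 90.9 in HN and 64.1 to 67.5 in PEC libraries, with Xbp1 its most abundant gene in Control and HN, Txndc5 in PEC. Tnfrsf17, a receptor of plasma cells, was at 0 in 5 of the 9 libraries and at most 0.27.

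Every secreting cell uses the genes of folding and secretion in the endoplasmic reticulum. Of 15, 0 rose and 3 fell in HN, 0 rose and 5 fell in PEC against HN, and 0 rose and 8 fell in PEC against Control, with medians of -0.18, -0.44 and -0.71. Of all tested genes, 14.8%, 15.3% and 17.5% fell, so that 3 of 15 in HN lies near the share of all genes. The falls in HN depended on the scaling, since library totals gave 2 rises and 0 falls there and limma 1 rise and 0 falls. Library totals and limma on log2(FPKM + 1) gave 1 rise and 5 falls in PEC against Control. DESeq2 and an unadjusted p gave 0 rises in each comparison. Without HN 4, 5 fell in HN and 2 with PEC, without PEC 1 the falls with PEC were 3, and without Control 5 1 gene rose in PEC against Control. Hspa5, the chaperone BiP that binds unassembled heavy chains, fell by 0.72 ± 0.19 in PEC against HN (adjusted p = 0.0158, edgeR, 3 of 3), a call that was lost without HN 4 (-0.47) or PEC 1 (-0.68). Together they summed to 878 to 1192 FPKM in Control, 1089 to 1512 in HN and 952 to 1009 in PEC libraries. The FPKM of the list far exceeded that of the 10 genes described here, and its source among the cells of the kidney was not tested.

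Of 10 genes of antibody receptors and transport, 6 rose and 2 fell in HN, 1 rose and 1 fell in PEC against HN, and 4 rose and 1 fell in PEC against Control, with medians of 0.82, -0.59 and 0.52. The 1 of 10 in each direction in PEC against HN is no more than the 13.5% and 15.3% of all tested genes. In HN 17.7% of all tested genes rose and 14.8% fell, so that 2 of 10 falls lie near the share of all genes. The shares in PEC against Control were 19.0% and 17.5%, and 1 of 10 falls there is no more than the latter. Fcgr1, the high-affinity IgG receptor of macrophages, rose by 4.18 ± 0.50 in HN (adjusted p = 0.000158, edgeR, 3 of 3). Fcamr, a receptor for IgA and IgM, fell by 3.25 ± 0.36 in HN (adjusted p = 9.9e-05, edgeR, 3 of 3). With PEC it rose by 1.17 ± 0.34 against HN (adjusted p = 0.0230, edgeR, 3 of 3), a call lost without HN 4 (1.18), HN 12 (0.95), PEC 1 (1.11) or PEC 2 (0.99), so that no gene of the list then rose. The fall with PEC was that of Fcer1g, the signalling chain of activating IgG receptors and of the high-affinity IgE receptor. With library totals 3 fell with PEC and with limma 4, where limma on log2(FPKM + 1) did not call Fcamr (0.56), and 1 fell in HN with either. No fall was called without HN 4, HN 8 or PEC 1, 2 were seen without Control 5 and 4 without PEC 3, and 2 fell in PEC against Control without PEC 3. Pigr, which carries polymeric IgA across epithelia, stood at 29.6 to 55.7 FPKM in Control, 29.9 to 41.7 in HN and 25.7 to 55.5 in PEC libraries, where the groups overlapped. Its fitted log2 fold change was -0.76 ± 0.31 in HN against Control (adjusted p = 0.076, edgeR, lower in 3 of 3 libraries on TMM-scaled counts) and was not called. It was called lower at an unadjusted p, in DESeq2 (-0.74), in a fit of only these groups (-0.71) and without Control 5 (-0.96) or PEC 3 (-0.77), and 3 genes of the list then fell in HN. Pigr stood at 0.22 ± 0.31 in PEC against HN, with its sign turned in limma (-0.05 and -0.06) and without PEC 3 (-0.15), and at -0.54 ± 0.31 in PEC against Control, called without PEC 3 (-0.92). The list summed to 106 to 143 FPKM in Control, 201 to 267 in HN and 143 to 213 in PEC libraries.

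Of 16 tested genes of B cell recruitment and survival signals, 8 rose and 1 fell in HN, 0 rose and 3 fell in PEC against HN, and 8 rose and 1 fell in PEC against Control, with medians of 1.20, -0.26 and 1.10. The 3 of 16 that fell in PEC against HN lie near the 15.3% of all tested genes. DESeq2 and an unadjusted p also gave 0 rises there, as did limma among the 11 genes it tested, where 13.5% of all tested genes rose in the edgeR fit. In HN 17.7% of all tested genes rose and 14.8% fell, and in PEC against Control 19.0% rose and 17.5% fell. Tnfsf13b, the B cell survival factor BAFF, rose by 1.80 ± 0.26 in HN (adjusted p = 0.000465, edgeR, 3 of 3) and stood at 0.27 ± 0.25 in PEC against HN, or -0.04 without PEC 3. Ltb, a lymphotoxin that organises lymphoid tissue, rose by 3.98 ± 0.34 in HN (adjusted p = 2.17e-05, edgeR, 3 of 3) and fell by 1.07 ± 0.29 with PEC (adjusted p = 0.0186, edgeR, 3 of 3), without a call when HN 8 (-0.79) or PEC 1 (-0.98) was left out. Ccl28, a chemokine that draws IgA-secreting cells to mucosa, fell by 1.52 ± 0.37 in HN (adjusted p = 0.00954, edgeR, 3 of 3, not called at -0.94 with library totals) and by a further 2.06 ± 0.38 with PEC (adjusted p = 0.00295, edgeR, 3 of 3). Without PEC 1, 1 gene of the list fell with PEC, and without PEC 3, 2 fell in HN and 2 in PEC against Control. Together they summed to 24.6 to 30.6 FPKM in Control, 48.1 to 49.5 in HN and 31.8 to 45.04 in PEC libraries. Of 3 tested genes of antibody gene recombination and mutation, 1 rose in HN and 1 in PEC against Control, in both cases Ung, a uracil glycosylase that all dividing cells use. Their medians were -1.19, 0.17 and -0.47, none fell and none was called with PEC against HN, while an unadjusted p and DESeq2 gave 1 fall in HN and 0 otherwise, and limma gave 0 falls among the 2 genes it tested. Without HN 4, 1 fell in HN, and without HN 4 or HN 8, 1 fell in PEC against Control. Rag1 and Rag2, the recombinase of developing lymphocytes, were at 0 in all 9 libraries. The recombination list summed to 1.23 to 2.17 FPKM over all libraries.

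The 10 genes outside the immunoglobulins whose log2(FPKM + 1) most resembled the mean profile of the 7 constant regions were searched for among genes whose FPKM averaged at least 0.5. Among them were Ptpn22, Fcgr2b, Ptprc, Rnf150, Piezo2, Cgas, Hnrnpul1, Spidr and Gm6793, with a Pearson r of 0.972 to 0.983 over 9 libraries, which share their group and depth. Ptpn22, the most alike, had 0.61, 0.50 and 0.66 FPKM in Control libraries, 2.83, 3.52 and 2.41 in HN libraries and 0.98, 1.82 and 1.15 in PEC libraries, with all 3 groups apart. For the 10 genes described here, each constant region was set against the mean profile of the other constant regions. Jchain, Mzb1 and Cd79a were set against that of all 7. Igkc had the highest r (0.947) and Ighg1 the lowest (0.491), with Ighm at 0.615.

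Markers of other cell types were listed because the kidney holds such cells and their shares may move with the groups. All 12 T cell genes rose in HN (median 2.38) and none fell. In PEC against HN 2 fell (Cd3d and Cd4, median -0.69) and none rose, and in PEC against Control 11 rose (median 1.88) and none fell. These counts of 0 were also 0 in DESeq2, at an unadjusted p and in limma, which tested 11 of the 12. Among all tested genes, 17.7% rose and 14.8% fell in HN. In PEC against HN these shares were 13.5% and 15.3%, so that 2 of 12 falls lie near the share of all genes. In PEC against Control they were 19.0% and 17.5%. Limma on log2(FPKM + 1) gave 7 rises in PEC against Control. The falls were 4 with library totals, 4 or 5 with limma and 5 at an unadjusted p, 1 with no filter and 0 at a fold change of 2, and they were 1 without HN 4, PEC 2 or PEC 3 and 0 without HN 8, HN 12 or PEC 1. The list summed to 3.86 to 6.80 FPKM in Control, 26.4 to 50.9 in HN and 18.9 to 24.2 in PEC libraries, and Trbc2 was most abundant in HN with 6.89 to 12.2. All 8 macrophage genes rose in HN (median 3.73), 7 fell in PEC against HN (median -1.13) and 8 rose in PEC against Control (median 2.45), with 0 in the opposite directions by edgeR, DESeq2, limma and an unadjusted p. For all tested genes, 17.7% rose in HN, 15.3% fell in PEC against HN and 19.0% rose in PEC against Control. The macrophage genes summed to 52.4 to 62.0 FPKM in Control, 1112 to 1295 in HN and 425 to 588 in PEC libraries, with Lyz2, a lysozyme, the most abundant (13.4 to 15.3, 527 to 590 and 213 to 252). The summed macrophage level was 2.48 times lower in PEC than in HN by group means, the T cell level 1.74 times and the V gene level 27.8 times. The part of these cells in the immunoglobulin result was not tested.

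Of 8 kidney epithelial genes, 5 fell and 0 rose in HN, 3 rose and 0 fell in PEC against HN, and 4 fell and 0 rose in PEC against Control, with medians of -1.04, 0.28 and -0.59. The opposite counts were also 0 in DESeq2 and at an unadjusted p, while library totals gave 2 rises in HN and 1 in PEC against Control and limma 1 or 2 in HN, by the pseudocount. The falls in HN were 3 with limma, and 1 gene rose with PEC against HN. Among all tested genes, 17.7% rose and 14.8% fell in HN, and 13.5% rose and 15.3% fell in PEC against HN. In PEC against Control 19.0% rose and 17.5% fell. The epithelial genes summed to 2081 to 2347 FPKM in Control, 1747 to 1962 in HN and 1805 to 2089 in PEC libraries, with Umod the most abundant. All 5 red cell genes fell in HN (median -2.99) and rose in PEC against HN (median 2.07), and 3 fell in PEC against Control (median -1.01). The shares of all tested genes in these directions were 14.8%, 13.5% and 17.5%. No red cell gene rose in HN or fell with PEC against HN by edgeR, DESeq2, limma or an unadjusted p, and 0 rose in PEC against Control by edgeR, where the other 3 gave 1. With library totals or limma, and without Control 5 or PEC 1, 1 fell in PEC against Control, and without Control 5 or HN 12, 1 rose. They summed to 328 to 511 FPKM in Control, 53.7 to 90.3 in HN and 315 to 387 in PEC libraries, so that Control and PEC overlapped, as they did for Igkc and Igha but in the opposite direction from HN. Hba-a1, an alpha globin, was most abundant in Control with 136 to 200, and Hbb-bs, a beta globin, in PEC with 99.4 to 118.

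Tissue outside the kidney was read from 3 lists. Beside their counts, 17.7% of all tested genes rose in HN, 13.5% in PEC against HN and 19.0% in PEC against Control. The shares that fell were 14.8%, 15.3% and 17.5%. Of 4 tested lung airway genes, 4 were higher in PEC than in HN and than in Control (medians of 7.17 and 6.61 at the floor), none was lower by edgeR, DESeq2, limma or an unadjusted p, and the median of HN against Control was -0.36 at the floor with none called by any of them. The filter on average FPKM and limma tested only 2 of the 4, Scgb1a1 and Sftpc, and both rose in each PEC comparison. With Scgb3a2, which was not tested, the lung airway list summed to 55.0, 49.6 and 18.0 FPKM in PEC 1, 2 and 3, to 0.02 in HN 8 and 0.10 in HN 12 and to 0 elsewhere. Besides Scgb1a1 the list held Sftpc, a lung surfactant protein, with 2.20, 2.83 and 0.43. The 3 tested fat cell genes (medians of 0.73, 3.73 and 4.37) were called in no comparison by edgeR, DESeq2, limma or an unadjusted p. With Lep, which was not tested, the fat cell list summed to 109 FPKM in PEC 3, of which Adipoq, a hormone of fat cells, made 61.2. It summed to at most 8.91 in any other library. Of 2 tested lymph node genes, none was called in HN or in PEC against HN by edgeR (medians of 1.88 and 0.11), although an unadjusted p and DESeq2 gave 1 rise in HN, as did the fit without Control 2. Between PEC and Control, 1 rose, Madcam1, an adhesion molecule of vessels (median 1.99), and 0 were called without any of Control 4, Control 5, HN 4, HN 12, PEC 1, PEC 2 and PEC 3. The lymph node genes summed to at most 0.42 FPKM, and Glycam1 and Chst4, which mark the vessels of lymph nodes, were at 0 in all libraries but Control 2, where Glycam1 was at 0.09. PEC 3, with the most fat signal, had the lowest Igkc of the PEC libraries and the least V reads, and the part of these tissues in the immunoglobulin result was not tested.

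**Figure D4:**
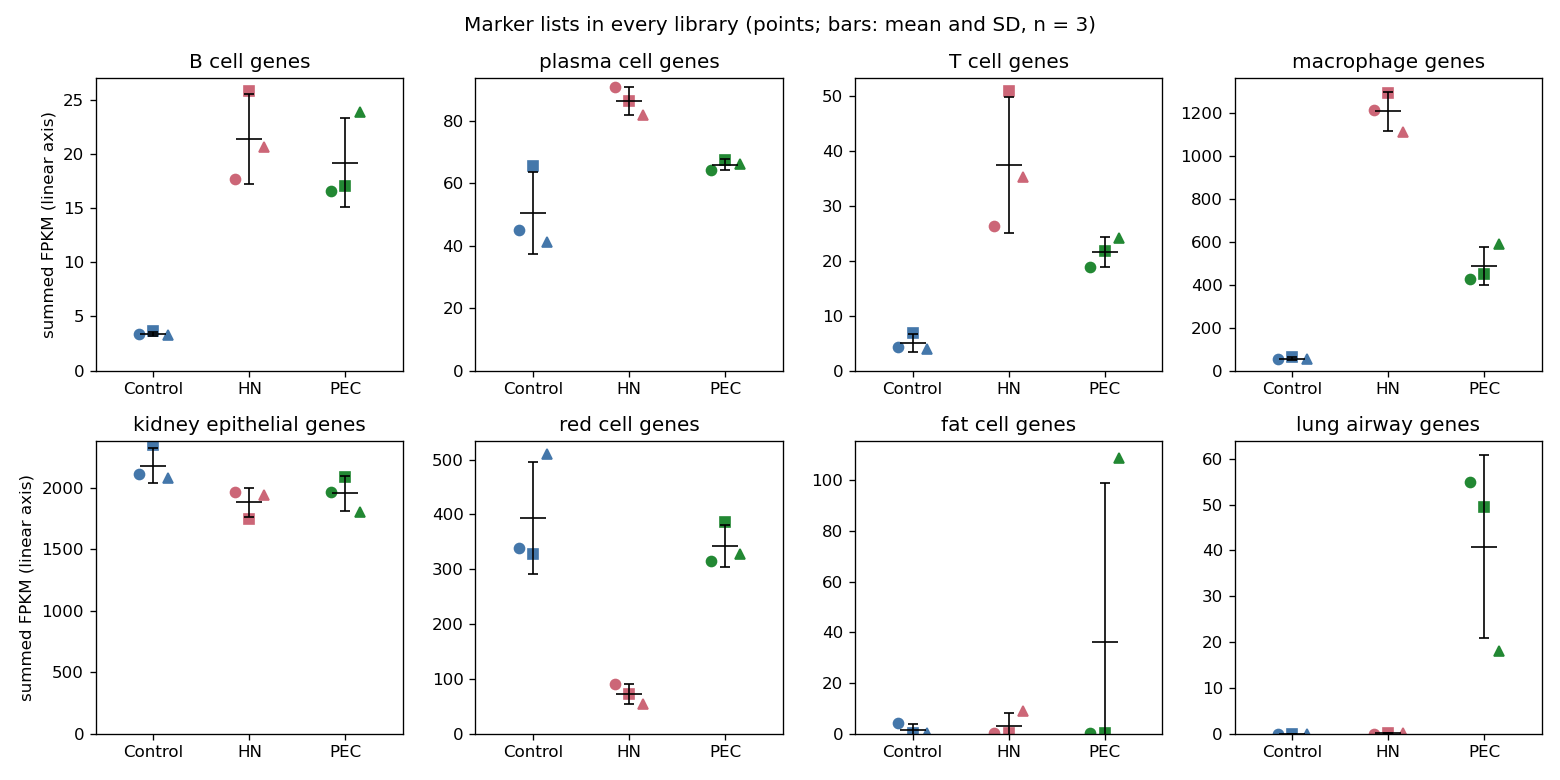
Summed FPKM (linear axis) of 8 marker lists in each library, with points for libraries and bars for the group mean and SD (n = 3). The sum of the B cell genes, which is mostly Cd72 and Blnk, overlaps between PEC and HN libraries. Macrophage and T cell genes lie between Control and HN in PEC, and lung airway genes reach 18.0 to 55.0 in PEC libraries alone.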

How the data were processed

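The authors deposited 1 table with an unnormalized read count and an FPKM value for 55385 genes in each of 9 kidney libraries, 3 per group. The submitters' processing notes name Bowtie 0.12.2, mm8 and mm9, whereas the coordinates in the table are those of GRCm38, identical to GENCODE M21 for 51991 of 55144 shared genes. The FPKM deposited by the authors is a count scaled by gene length and library total. The handling of reads with several matches and of strand is not given in the sources used here.

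The members and gene lists were chosen with earlier results of these data known. The text names the 10 members, the 3 IGHV, 3 IGKV and 1 IGLV genes with the highest mean FPKM, genes of the lists, and the 10 genes most like the constant regions. Examples from the lists were picked after their values were seen. Some genes that this rule covers are not reported here. Counts were analysed in R 4.3.3 with edgeR 4.0.16 (TMM, glmQLFit and glmQLFTest, 1 fit over 9 libraries, genes with at least 10 counts in at least 3 libraries). Standard errors are the absolute log2 fold change divided by the square root of F. The 19 alternatives were median-of-ratios factors, library totals, DESeq2 1.42.0, limma 3.58.1 with a trend on log2(FPKM + 1) and on log2(FPKM + 0.1), both for genes with an average FPKM of at least 0.5, no filter, an average FPKM of at least 0.5, an unadjusted p, a fold change of at least 2, a fit of only the groups compared, and each library left out. Sums, ratios and shares of FPKM were also taken on FPKM rescaled to a common sum and on TMM-scaled counts (CPM). The T cell receptor ratio was chosen after seeing the data. Sums, exact binomial intervals (95%) and sequence words were computed in Python 3.11.15 with pandas 2.3.3 and scipy 1.17.1. The edgeR fit was tested on simulated data, where it first fell just short of the number of changed genes set to be recovered, and that number was lowered after this was seen. Sequences are from GENCODE M21 transcripts on GRCm38. Total counts were 57714111 to 81069646 per library. Fdcsp of the lymph node list was not found in the table by this name and was not analysed here.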

Additional observations from a re-analysis of the deposited data

How the results depend on the processing

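The log2 fold changes of the 10 genes, the V genes described singly and a selection of list genes were recomputed under the 19 alternatives. Other named genes, such as Fcer1g, Cd3d, Cd4, Ung and Madcam1, were not in that selection. Of the 2349 values, 2156 kept their direction and their side of the threshold, 72 passed it, 74 no longer did and 47 changed sign. None of these 47 was in a gene called in that comparison. In HN against Control the changes of sign were Xbp1, Hspa5 and Dnajb9 with library totals (0.40, 0.23 and 0.12), with limma on log2(FPKM + 1) (0.38, 0.19 and 0.07) and on log2(FPKM + 0.1) (0.39, 0.19 and 0.07). In PEC against HN they were Cd72 with library totals (-0.18), no filter (-0.01) and limma (-0.18 and -0.20), Umod with library totals (-0.19), no filter (-0.02) and limma (-0.21 each), and Pigr with limma (-0.05 and -0.06). Over left-out libraries Cd72 ran from -0.25 to 0.30, Tnfsf13b from -0.04 to 0.44, Umod from -0.04 to 0.07 and Pigr from -0.15 to 0.43. In PEC against Control, library totals gave 0.21 for Ighg3, 0.31 for Iglc2 and 0.20 for Pou2af1, and limma gave 0.06 and 0.12 for Iglc2 and 0.03 for Prdm1. Over left-out libraries in this comparison, Igkc ran from -0.03 to 0.75, Ighg2b from -0.24 to 2.50, Ighg2c from -1.42 to 0.15, Ighg3 from -0.71 to 0.42 and Igkv14-111 from -1.74 to 1.51. Iglc2 ran from -0.49 to 0.33, Pou2af1 from -0.49 to 0.89, Prdm1 from -0.69 to 0.21 and Eaf2 from -0.07 to 0.18. Genes called in HN against Control were 7705 higher and 1285 lower with library totals, 1024 lower with limma on log2(FPKM + 1), 5906 higher and 1191 lower with limma on log2(FPKM + 0.1), and 1901 lower at a fold change of 2. In PEC against HN they were 1770 higher and 1822 lower at a fold change of 2, and 1356 and 1683 higher with limma. In PEC against Control they were 6398 higher and 1961 lower with library totals, 1485 and 1919 lower with limma, and 2086 lower at a fold change of 2. Of the 10 genes described here, 5 were called higher in HN against Control with an FPKM average of at least 0.5, where 7 of them are tested, and 5 to 9 over left-out libraries. Ighg1, Ighg3 and Cd79a had no value with that filter or with limma. In PEC against Control, 1 was called higher with that filter and with limma on log2(FPKM + 1), and 1 lower at an unadjusted p and in DESeq2, with 0 to 1 lower over left-out libraries. In HN against Control, 84 V genes rose with library totals and 102 and 100 with limma, and 34 to 67 over left-out libraries. In PEC against Control, V genes that rose were 2 at an unadjusted p, 2 with library totals, 1 with the FPKM filter, 3 in DESeq2 and 0 to 2 over left-out libraries. V genes that fell were 47 at an unadjusted p, 8 and 19 with limma, 14 in a fit of only the groups compared and 14 to 37 over left-out libraries. On TMM-scaled counts, not divided by length, Igkc over its V genes was 1.382, 1.261 and 4.815 in the Control, HN and PEC means, the heavy-chain ratio was 3.938, 3.157 and 25.92, and Igha took 81.47% of the heavy-chain sum for HN. The cause of these differences was not tested. No paired analysis was made, since no label pairs samples of different groups and the sample numbers run within each group. Depth limits the scarce genes most, since Ighg3 had at most 4 reads in any Control or PEC library and Cd79a at most 86 in any library.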
